A study of Drosophila melanogaster with 6 samples.

Results

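Mediator and Integrator subunit genes were followed across NAP-1 knockdown, CBP knockdown and control knockdown in S2 cells, a Drosophila melanogaster line that was derived from embryos and resembles blood cells. The members are the genes whose symbol is MED or IntS followed by a number: 36 of the 8604 gene symbols in the deposited table, 25 of Mediator and 11 of Integrator. They were taken by name alone, and their values are RPKM, reads per kilobase of transcript scaled to the number of reads. Each of the 3 groups had 2 samples, and the labels name neither the agent used for knockdown nor separate cultures. The p-values therefore rest on sample-to-sample spread that may be technical. NAP-1 is a histone chaperone encoded by Nap1, CBP is a histone acetyltransferase encoded by nej, and all samples share the same cell line and medium. Messenger RNA was sequenced to between 4162019 and 5362319 alignments per sample.

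Mediator is a large coactivator that carries signals from DNA-bound activators to RNA polymerase II. Its head and middle modules contact the polymerase, its tail receives activators, MED14 joins the modules, and a separable kinase module holds Cdk8 and its cyclin. Integrator is an animal complex that binds polymerase soon after initiation and cuts the nascent RNA with the endonuclease IntS11. It makes the ends of small nuclear RNAs and ends transcription early at many protein-coding genes, and it carries a phosphatase that opposes the kinases of elongation. CBP acetylates histones at enhancers and promoters, where Mediator is also bound.

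Several checks bear on every result. Nap1 stood at 20.6 and 26.5 RPKM in NAP-1 knockdown, at 325 and 365 RPKM in CBP knockdown and at 219.6 and 243 RPKM in control samples. Transcripts of nej stood at 1.26 and 2.41 RPKM in NAP-1 knockdown, at 0.899 and 0.363 RPKM in CBP knockdown and at 3.25 and 2.47 RPKM in control samples. The CBP knockdown libraries held fewer detected genes: 3444 and 3029 of 3990 genes tested reached 1 RPKM in them, 3649 and 3700 in NAP-1 knockdown and 3764 and 3799 in control samples. The members followed the same order, with 30 and 26 of 36 at 1 RPKM or more in CBP knockdown, 33 and 32 in NAP-1 knockdown and 34 and 33 in control samples. Loss of CBP and such differences between libraries cannot be told apart here. Of 9 listed blood cell markers, 3 were measured, the collagen genes vkg and Cg25C, between 25.2 and 121.9 RPKM, and crq, between 4.92 and 42.8 RPKM. Of these 3, vkg fell in CBP knockdown (limma adjusted p = 0.0266), and the part of such a shift in the members' results was not tested. Those listed as Hml, srp, He and NimC1 had no feature at a mean of 1 RPKM. Neither did Fbp1 of fat body, Mhc and Act88F of muscle, elav of neurons and vas of germ line. The markers Pxn, Lsp2, Syt1 and nos are not in the deposited table and were not measured, and Col4a1 is there as Cg25C.

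The deposited table has 16384 columns in sort order and ends among the RefSeq mRNAs. Symbols and mRNAs later in that order were not analysed here, and all genes below means the 3990 tested, as far as their columns are listed. The 36 members were listed in 50 columns, 14 of them RefSeq mRNAs, and identical repeats were dropped before summing. After that, 33 members had 1 distinct feature, and MED1, MED6 and MED21 had more. Per current RefSeq annotation, 25 members have 1 mRNA and 11 have several, and MED21 is the 1 of those 11 with all its mRNAs listed. A value of MED1, MED6, MED10, MED18, MED20, MED31 or IntS6 is therefore that of the listed mRNAs, and their other mRNAs were not analysed here. MED14, MED19 and MED26 are listed by symbol alone, and which of their mRNAs that column holds is not stated. MED9 and CG42518 have identical values in every sample, so these reads cannot be assigned to either gene alone. With a minimum mean of 1 RPKM over the 6 samples, 32 members were tested, 23 of Mediator and 9 of Integrator.

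Levels differed widely between subunits, although RPKM already divides by transcript length. IntS11, the endonuclease, had the highest mean, with 37.2 and 25.6 RPKM in NAP-1 knockdown, 46.9 and 41.8 RPKM in CBP knockdown and 32.8 and 36.4 RPKM in control samples. MED30, a tail-side subunit found in animals, followed with 28.0 and 23.0 RPKM in NAP-1 knockdown, 27.1 and 24.997 RPKM in CBP knockdown and 17.5 and 19.7 RPKM in control samples. Both genes were highest in a knockdown sample, and MED30, unlike IntS11, had all 4 knockdown samples above both control samples. MED21, a middle subunit, came next with 22.9 and 26.2 RPKM in NAP-1 knockdown, 22.9 and 9.87 RPKM in CBP knockdown and 16.2 and 21.3 RPKM in control samples. For MED21 the groups of CBP knockdown and control overlapped. MED22 and MED28 had means of 19.9 and 18.3 RPKM, so the order among MED21, MED22 and MED28 is not separated by the spread between samples.

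Below the minimum were 4 members. MED23, a tail subunit that receives activators, stood at 1.12 and 0.72 RPKM in NAP-1 knockdown, 0.101 and 0.033 RPKM in CBP knockdown and 1.77 and 1.30 RPKM in control samples. It was lower in each CBP knockdown sample than in any other sample, and it was not tested. IntS3, which in mammals also belongs to a complex that binds single-stranded DNA, stood at 0.52 and 0.293 RPKM in NAP-1 knockdown, 0.155 and 0.127 RPKM in CBP knockdown and 2.44 and 0.472 RPKM in control samples. Its 2 control samples differed more from each other than control replicate 2 did from NAP-1 knockdown. IntS6, which holds the phosphatase in Integrator, stood at 0.456 and 0.248 RPKM in NAP-1 knockdown, 0.272 and 0.00312 RPKM in CBP knockdown and 0.525 and 0.477 RPKM in control samples. The listed transcript of MED26, a middle subunit that in mammals docks elongation factors, was near 0 throughout, at 0.000605 and 0.000568 RPKM in NAP-1 knockdown, 0.000338 and 0.000111 RPKM in CBP knockdown and 0.00548 and 0.000725 RPKM in control samples.

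**Figure D1:**
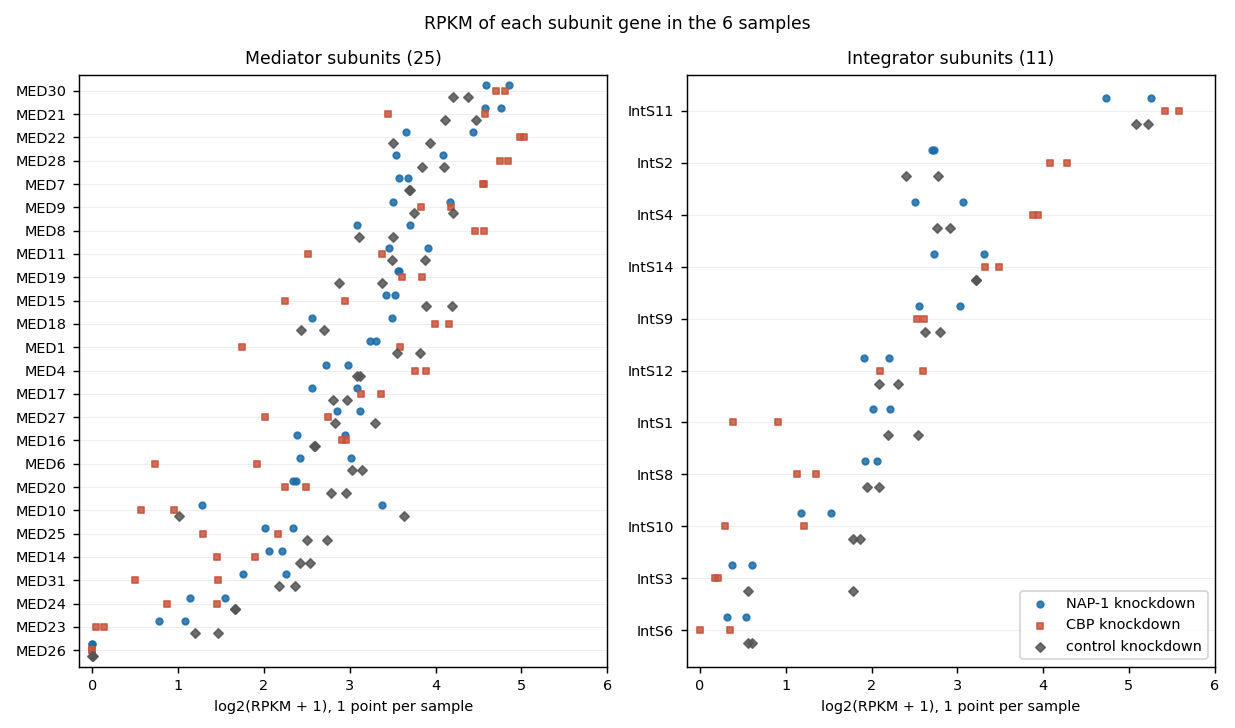
Levels of the 25 Mediator and 11 Integrator genes, ordered by mean RPKM, on a log2(RPKM + 1) axis with 1 point per sample for NAP-1 knockdown, CBP knockdown and control knockdown. IntS11 and MED30 head the panels, MED26 lies at 0, and the CBP knockdown points stand apart to the right for genes such as IntS2 and to the left for genes such as IntS1.

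Summed over a complex, RPKM were higher in both CBP knockdown samples than in control, but not as a share of all genes for Mediator. Mediator genes summed to 215.9 and 216.2 RPKM in NAP-1 knockdown, 272.6 and 234.8 RPKM in CBP knockdown and 206.01 and 226.7 RPKM in control samples. Integrator genes summed to 79.3 and 57.01 RPKM in NAP-1 knockdown, 97.8 and 96.9 RPKM in CBP knockdown and 73.2 and 76.9 RPKM in control samples. The sum over all genes tested was likewise higher in CBP knockdown, at 79530 and 83070 RPKM against 64070 and 69650 RPKM in control samples. As a share of that sum, the values of both complexes lay closer together. Mediator genes held 0.315% and 0.322% of summed RPKM of the genes tested in NAP-1 knockdown, 0.343% and 0.283% in CBP knockdown and 0.322% and 0.326% in control samples. Integrator genes held 0.116% and 0.085% in NAP-1 knockdown, 0.123% and 0.117% in CBP knockdown and 0.114% and 0.11% in control samples. For Mediator the groups overlapped in both comparisons, while both CBP knockdown samples lay just above the control samples for Integrator. Across the 32 members Spearman's rho of levels was 0.94 between the NAP-1 knockdown and control means, and 0.722 between the CBP knockdown and control means. Between replicates it was 0.829 in NAP-1 knockdown, 0.938 in CBP knockdown and 0.859 in control samples; the members of a sample share their library, and these values are descriptions.

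NAP-1 knockdown was set against control to ask whether loss of the chaperone alters these transcripts. No member passed the test (limma on log2(RPKM + 1), Benjamini-Hochberg adjusted p under 0.05 over 3990 genes): 0 of 32 were higher and 0 were lower, and 0 had an unadjusted p under 0.05. The background was 0% of all genes called higher and 0.0251% called lower, which is Nap1 itself. The members' fold changes lay between -0.56 and 0.46 on the log2 scale, with a median of -0.11 against -0.13 over all genes.

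The members with the largest differences show how the spread compares. MED18, a head subunit that in yeast forms a mobile unit with MED20, had 10.3 and 4.91 RPKM in NAP-1 knockdown and 4.42 and 5.50 RPKM in control samples. The groups overlapped, the log2 fold change was 0.46 ± 0.36 (SE, n = 2 each), and the adjusted p was 0.979. Without NAP-1 knockdown replicate 1 the fold change was -0.0041, so replicate 1 decides its direction. MED19, a middle subunit that in flies works with Hox proteins, had 10.8 and 10.9 RPKM in NAP-1 knockdown and 9.41 and 6.33 RPKM in control samples. The log2 fold change of MED19 was 0.44 ± 0.29 and that of MED30 was 0.43 ± 0.25 (SE), each with non-overlapping groups and an adjusted p of 0.979.

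Among members with lower values, MED15, a tail subunit contacted by many activators, had 10.6 and 9.75 RPKM in NAP-1 knockdown and 17.3 and 13.8 RPKM in control samples. Its groups did not overlap, and the log2 fold change was -0.56 ± 0.32 (SE, limma adjusted p = 0.979). MED20, a head subunit, had 4.18 and 4.04 RPKM in NAP-1 knockdown and 5.86 and 6.76 RPKM in control samples, a log2 difference of -0.51 ± 0.28. IntS10, of the auxiliary module, had 1.87 and 1.27 RPKM in NAP-1 knockdown and 2.64 and 2.44 RPKM in control samples, a log2 difference of -0.47 ± 0.40. In all, 3 members were higher and 10 lower in both NAP-1 knockdown samples than in both control samples. The background of genes with such non-overlapping groups was 8.12% higher and 26.2% lower.

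With CBP knockdown, subunits were called in both directions. Against control, 6 of 32 members rose and 3 fell (limma, adjusted p under 0.05), against a background of 8.5% of all genes called higher and 17.4% called lower. The members' shares were 18.8% higher and 9.38% lower. Those that rose were the head subunits MED18, MED22 and MED8, the middle subunit MED7, and IntS2 and IntS4 of Integrator. Those that fell were the head subunit MED6, the tail subunit MED15 and IntS1 of Integrator. Direction went with level: 15 of 21 members with a mean of at least 5 RPKM had a positive fold change, against 1 of 11 below. All genes leaned the same way, with 55.6% positive at a mean of at least 5 RPKM and 32.4% below. The part of level in the members' calls was not tested. The study measured bulk RNA, so fewer cells of a type and less RNA per cell cannot be told apart.

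All 9 calls were lost without control replicate 1, without control replicate 2 and without CBP knockdown replicate 2. That loss was general: of 3990 genes, 0 were called on omission of the first control library or the second CBP knockdown library, and 31 higher and 177 lower on omission of the second control library. With CBP knockdown replicate 1 left out, MED6, MED15, IntS1 and IntS2 kept their calls and the other 5 lost theirs, with 109 of all genes called higher and 591 lower. Over all genes 339 were called higher and 693 lower; the split was 494 and 639 after scaling by median of ratios. It was 370 and 414 after quantile normalization, and 445 and 384 once a length trend had been subtracted. For the members the split of 6 and 3 was 8 and 3, 5 and 3, and 4 and 3 in those fits.

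Head subunits rose and fell side by side. MED18 had 14.98 and 16.8 RPKM in CBP knockdown and 4.42 and 5.50 RPKM in control samples, a log2 fold change of 1.51 ± 0.36 (SE, n = 2 each; limma adjusted p = 0.0309). MED22 had 31.7 and 30.7 RPKM in CBP knockdown and 10.4 and 14.3 RPKM in control samples, a change of 1.29 ± 0.34 (adjusted p = 0.0357). MED8, which in yeast ties the MED18 and MED20 unit to the rest of the head, had 21.1 and 22.6 RPKM in CBP knockdown and 10.3 and 7.60 RPKM in control samples, a change of 1.21 ± 0.31 (adjusted p = 0.0343). For these 3 genes both CBP knockdown samples exceeded all other samples, and the 2 CBP knockdown samples lay close together. MED6, which contacts the middle module, went the other way with 2.79 and 0.665 RPKM in CBP knockdown and 7.82 and 7.16 RPKM in control samples. Its change was -1.76 ± 0.45 (adjusted p = 0.0337), and its CBP knockdown samples differed more than its control samples.

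The remaining head subunits did not pass. MED17, the scaffold of the head, had 7.75 and 9.26 RPKM in CBP knockdown and 6.83 and 5.99 RPKM in control samples, with an adjusted p of 0.388. MED11 had 9.39 and 4.72 RPKM in CBP knockdown and 13.7 and 10.3 RPKM in control samples (adjusted p = 0.171). MED20, the partner of MED18 in yeast, had 4.63 and 3.73 RPKM in CBP knockdown and 5.86 and 6.76 RPKM in control samples (adjusted p = 0.204). The fold changes of MED18 and MED20 thus had opposite signs, 1.51 and -0.50, and the difference between them was not tested.

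In the middle module 1 of 8 members tested rose and 0 fell, where 8.5% of all genes were called higher and 17.4% lower. MED7, which with MED21 forms the hinge of the module in yeast, had 22.5 and 22.6 RPKM in CBP knockdown and 12.006 and 11.9 RPKM in control samples. Both groups were tight, and the log2 fold change was 0.86 ± 0.24 (SE, limma adjusted p = 0.0406). MED4 had 12.6 and 13.8 RPKM in CBP knockdown and 7.71 and 7.51 RPKM in control samples, also without overlap, and missed the threshold (adjusted p = 0.0773). It passed with median-of-ratios scaling (adjusted p = 0.0481).

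Other middle subunits had lower values in CBP knockdown without passing. MED31, a small subunit conserved from yeast to animals, had 1.76 and 0.412 RPKM in CBP knockdown and 3.51 and 4.14 RPKM in control samples, a log2 difference of -1.28 ± 0.41 (SE, adjusted p = 0.0586). MED10 had 0.93 and 0.48 RPKM in CBP knockdown, against 1.02 RPKM in control replicate 1 and 11.4 RPKM in control replicate 2. In NAP-1 knockdown it stood at 1.43 RPKM in replicate 1 and 9.39 RPKM in replicate 2. The listed mRNA of MED10, 1 of 2 known, was thus low in both first replicates of those groups and high in both second replicates, and the difference of -1.56 ± 0.95 did not pass (adjusted p = 0.244). MED19 and MED9 had fold changes of 0.60 and 0.03, with adjusted p of 0.152 and 0.958.

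In the tail 1 of 7 members tested fell and 0 rose, where 17.4% of all genes were called lower and 8.5% higher. The scaffold gene did not pass. MED15 had 6.71 and 3.74 RPKM in CBP knockdown and 17.3 and 13.8 RPKM in control samples, and fell by 1.45 on the log2 scale (SE 0.32, limma adjusted p = 0.0263). The NAP-1 knockdown samples of MED15, given above, lay between these groups without overlapping either. MED14, the scaffold, had 2.73 and 1.74 RPKM in CBP knockdown and 4.80 and 4.36 RPKM in control samples, with an adjusted p of 0.0883. MED25 and MED27 had log2 differences of -0.89 and -0.68 (adjusted p = 0.114 and 0.182), and MED24 one of -0.50 (adjusted p = 0.310).

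Tail subunits with higher values did not pass either. MED28, which lies where tail and head meet, had 25.9 and 27.8 RPKM in CBP knockdown and 13.4 and 16.2 RPKM in control samples (adjusted p = 0.0718). It passed with median-of-ratios scaling (adjusted p = 0.0436). MED30 and MED16 had fold changes of 0.47 and 0.34, with adjusted p of 0.193 and 0.403. Over the 7 tail members tested the median log2 fold change was -0.50, against 0.36 over the 7 head members and -0.13 over the 8 middle members. All genes had a median of -0.15. The sign of the tail value depended on processing. MED24, which held the tail median, had -0.38 with median-of-ratios scaling, 0.16 with quantile normalization and 0.27 with the length trend removed. MED17, which held the head median, had 0.54, 0.52 and 0.66 in those fits. The difference between modules was not tested.

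Of 9 Integrator members tested, 2 rose and 1 fell, where 8.5% of all genes were called higher and 17.4% lower. Integrator's backbone and cleavage module held these 3 calls. IntS2, a backbone subunit, had 15.9 and 18.4 RPKM in CBP knockdown and 4.29 and 5.83 RPKM in control samples. That is a log2 fold change of 1.59 ± 0.27 (SE, n = 2 each; limma adjusted p = 0.0174), the largest fold change above 0 among the 32 members. IntS1, the backbone's scaffold, had 0.879 and 0.306 RPKM in CBP knockdown and 4.82 and 3.57 RPKM in control samples, and fell by 1.72 (SE 0.34, adjusted p = 0.0194). Neither gene's CBP knockdown samples overlapped control. With a trend on transcript length removed, the call of IntS1 was lost, at a fold change of -0.37 (adjusted p = 0.347), and that of IntS2 was kept.

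IntS4, the scaffold of the cleavage module, had 13.8 and 14.3 RPKM in CBP knockdown and 5.78 and 6.57 RPKM in control samples. It rose by 1.07 ± 0.29 (SE, limma adjusted p = 0.0403). Its partners in the module did not pass: the fold change was 0.35 ± 0.28 for the nuclease gene IntS11 and -0.14 ± 0.29 for IntS9, its inactive relative (adjusted p = 0.363 and 0.744). IntS9 had 4.80 and 5.12 RPKM in CBP knockdown and 5.17 and 5.98 RPKM in control samples.

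The other Integrator genes gave no call. IntS8, which helps to hold the phosphatase, had 1.56 and 1.19 RPKM in CBP knockdown and 3.26 and 2.87 RPKM in control samples, without overlap (adjusted p = 0.089). IntS10 had 1.32 and 0.229 RPKM in CBP knockdown and 2.64 and 2.44 RPKM in control samples (adjusted p = 0.0849). IntS14, of the same auxiliary module as IntS10, had 9.04 and 10.2 RPKM in CBP knockdown and 8.28 and 8.33 RPKM in control samples (adjusted p = 0.651). IntS12, a subunit with a PHD finger, had 3.28 and 5.06 RPKM in CBP knockdown and 3.25 and 3.96 RPKM in control samples (adjusted p = 0.750).

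**Figure D2:**
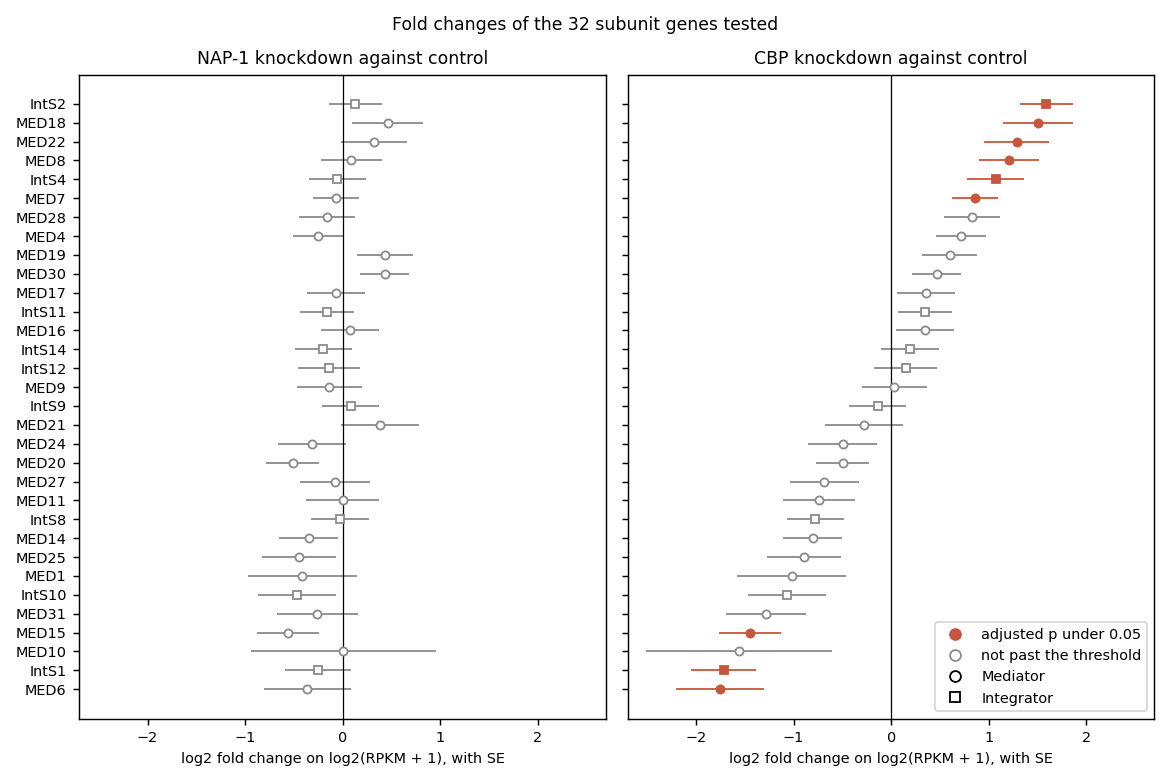
Log2 fold changes of the 32 members tested, with SE bars, in NAP-1 knockdown against control (left) and CBP knockdown against control (right), ordered by the fold change in CBP knockdown. Circles are Mediator and squares Integrator, and filled points passed an adjusted p of 0.05: 0 on the left, 6 higher and 3 lower on the right.

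In all, 14 of 32 members were higher and 14 lower in both CBP knockdown samples than in both control samples, where 33.7% and 42.4% of all genes did so. The median over the 32 members was -0.05 against -0.15 over all genes. The sign of that median was positive with median-of-ratios scaling (0.13, all genes 0.01), quantile normalization (0.15, all genes 0.12) and the length trend removed (0.22, all genes 0.09). The median of the members lay above that of all genes in each of these settings, and 16 members had a positive and 16 a negative fold change before any such scaling.

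Genes are not independent replicates; across the 3984 with a known transcript length, Spearman's rho between length and the CBP knockdown fold change was -0.38, and across the 32 members it was -0.23. For NAP-1 knockdown these were -0.37 and -0.33. The members that rose in Mediator are short, with median transcript lengths of 602 nt for MED22, 853.5 nt for MED18, 901 nt for MED7 and 963 nt for MED8. Genes were also split into 5 bins by length; in the shortest, up to 967 nt, 13.9% of all genes were called higher, and the median fold change was 0.29. IntS2 and IntS4 are long, at 3668 nt and 3466 nt, in the bin of 2907 nt or more, where 2.89% of all genes were called higher and 39.9% lower. With the trend on length removed, IntS2 had a fold change of 2.49 (limma adjusted p = 0.0169) and IntS4 of 1.92 (adjusted p = 0.0203). IntS1, at 6401 nt, then had a fold change of -0.37 (adjusted p = 0.347), and MED22 and MED7 had 1.04 and 0.76 (adjusted p = 0.06 and 0.0601). MED6, MED8, MED15 and MED18 kept their calls, MED15 at an adjusted p of 0.0499, and MED31 gained one at -1.42 (adjusted p = 0.043).

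**Figure D3:**
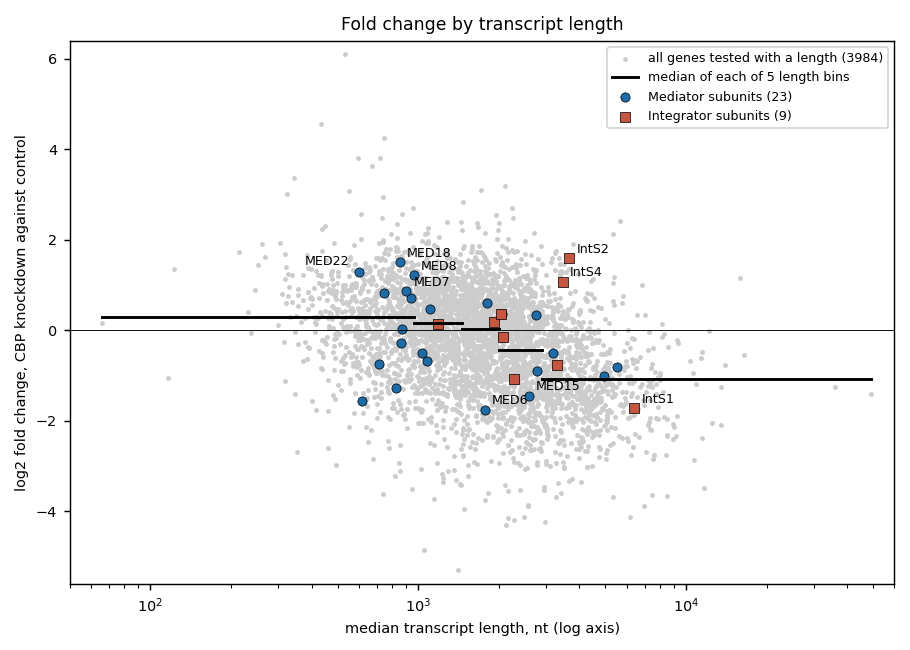
Log2 fold change in CBP knockdown against control by median transcript length (log axis) for all 3984 genes with a length (grey), Mediator genes (circles) and Integrator genes (squares), with the median of each of 5 length bins as a bar. Named points are the 9 members called; IntS2 and IntS4 lie above 0 where the median of all genes is -1.07.

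For MED1, MED6 and MED21 the listed mRNAs can be told apart. The mRNA of MED21 listed as number 2 stood at 5.40 and 2.32 RPKM in NAP-1 knockdown, 0.0862 and 0.0371 RPKM in CBP knockdown and 5.795 and 1.87 RPKM in control samples. Number 1 stood at 17.5 and 23.9 RPKM in NAP-1 knockdown, 22.8 and 9.83 RPKM in CBP knockdown and 10.4 and 19.4 RPKM in control samples. The minor mRNA was nearly absent in both CBP knockdown samples, while the major mRNA overlapped control. The column named MED21 alone repeats the minor mRNA. Taken by itself, that column had a fold change of -2.06 ± 0.51 (SE, limma adjusted p = 0.0337), whereas the sum of both mRNAs had -0.28 ± 0.40 (adjusted p = 0.621).

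MED1, a middle subunit that in mammals binds nuclear receptors, summed to 10.997 and 2.36 RPKM in CBP knockdown and 10.7 and 13.1 RPKM in control samples. The gap between its CBP knockdown samples lies in listed mRNA 1, at 9.49 and 0.666 RPKM in CBP knockdown and 7.10 and 10.9 RPKM in control samples. Listed mRNA 2 was even between them, at 1.51 and 1.69 RPKM in CBP knockdown and 3.60 and 2.25 RPKM in control samples. Most of the MED6 level comes from listed mRNA 2, at 3.59 and 6.49 RPKM in NAP-1 knockdown, 2.16 and 0.579 RPKM in CBP knockdown and 5.46 and 6.49 RPKM in control samples. Listed mRNA 1 of MED6 stood at 0.783 and 0.588 RPKM in NAP-1 knockdown, 0.635 and 0.0858 RPKM in CBP knockdown and 2.36 and 0.669 RPKM in control samples. Both listed mRNAs of MED6 were thus lower in CBP knockdown than in control without overlap. For listed mRNA 1 the nearest samples were only 0.635 and 0.669 RPKM, and CBP knockdown overlapped NAP-1 knockdown. The column named MED6 alone was near 0, at 5.08e-06 RPKM or less in every sample. MED6 was therefore not tested in the fit of symbol-only columns, and its call rests on the listed mRNAs.

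**Figure D4:**
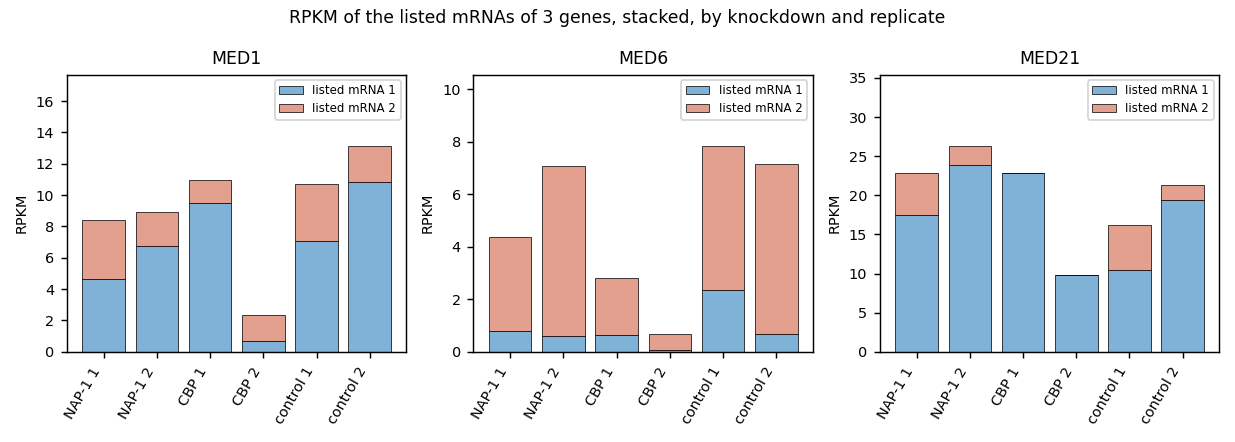
RPKM of the 2 listed mRNAs of MED1, MED6 and MED21, stacked, in each sample of NAP-1 knockdown, CBP knockdown and control knockdown. The upper part of the MED21 bars (mRNA 2) is near 0 in both CBP knockdown samples, and the MED1 bar is short in CBP knockdown replicate 2 alone.

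NAP-1 knockdown was also set against CBP knockdown, in the same fit, to which the control samples lend their spread. Of 32 members 0 were higher and 1 was lower in NAP-1 knockdown (limma, adjusted p under 0.05), against a background of 1.43% higher and 1.65% lower. The 1 was IntS2, with 5.64 and 5.51 RPKM in NAP-1 knockdown and 15.9 and 18.4 RPKM in CBP knockdown, a log2 fold change of -1.46 ± 0.27 (SE, adjusted p = 0.0463). Its call was lost on omission of any library other than NAP-1 knockdown replicate 1, with the 4 samples of these groups alone in the fit (adjusted p = 0.1), with a pseudocount of 0.1 RPKM and with quantile normalization, among other settings.

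In all, 10 members were higher and 12 lower in both NAP-1 knockdown samples than in both CBP knockdown samples, where 32.8% and 29.7% of all genes did so. Of the members next in size, IntS1 had 3.65 and 3.04 RPKM in NAP-1 knockdown and 0.879 and 0.306 RPKM in CBP knockdown, a log2 difference of 1.47 ± 0.34 (SE, limma adjusted p = 0.0563). IntS4 had 7.40 and 4.66 RPKM in NAP-1 knockdown and 13.8 and 14.3 RPKM in CBP knockdown, a difference of -1.13 ± 0.29 (adjusted p = 0.0702). Neither pair of groups overlapped. MED6 had 4.37 and 7.08 RPKM in NAP-1 knockdown and 2.79 and 0.665 RPKM in CBP knockdown (1.39 ± 0.45, adjusted p = 0.0985). MED8 had 11.97 and 7.49 RPKM in NAP-1 knockdown and 21.1 and 22.6 RPKM in CBP knockdown (-1.12 ± 0.31, adjusted p = 0.0748). MED10 differed by 1.57 ± 0.95 (adjusted p = 0.283). Without NAP-1 knockdown replicate 1, 5 members were called lower, IntS2, IntS4, MED8, MED18 and MED28, while 290 of all genes were called lower and 159 higher in that fit.

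Genes of the same pathway under other symbols were described for comparison. Of the Mediator kinase module, the kinase gene Cdk8, its cyclin gene CycC and kto, which encodes the MED12 subunit, were measured, and 0 of 3 passed in CBP knockdown. Their log2 differences were -0.40, -0.46 and -1.07 (limma adjusted p = 0.341, 0.472 and 0.254). For kto the samples were wide apart, at 4.59 and 0.924 RPKM in CBP knockdown and 4.60 and 7.51 RPKM in control samples. No Integrator gene under another symbol was tested.

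The machinery on which both complexes act was listed in part, since the table ends before the symbols late in sort order. Symbols were matched with letter case, so Atu, listed as atu, is not counted among the elongation factor genes below. Of 3 RNA polymerase II subunit genes tested, 2 fell and 0 rose in CBP knockdown, against 17.4% of all genes lower and 8.5% higher. RpII15 had 3.11 and 1.20 RPKM in CBP knockdown and 14.6 and 7.50 RPKM in control samples (limma adjusted p = 0.0304). The listed mRNA of Rpb12 had 14.4 and 1.31 RPKM in CBP knockdown and 34.5 and 41.5 RPKM in control samples (limma adjusted p = 0.0487). Of 8 pausing and elongation factor genes, 4 fell and 0 rose, with a median of -1.20, where 17.4% of all genes were called lower. These were the P-TEFb cyclin gene CycT (-2.20), lilli (-2.10) and Su(Tpl) (-1.48), which encode parts of the super elongation complex, and the kinase gene Cdk12 (-1.34). All 4 have median transcript lengths of 4530 nt or more, in the bin where 39.9% of all genes were called lower with a median of -1.07. Of 9 general transcription factor genes, 1 fell and 0 rose, against 17.4% of all genes lower and 8.5% higher. The gene that fell was hay, which encodes a TFIIH helicase. It had 0.247 and 1.76e-12 RPKM in CBP knockdown and 9.34 and 7.34 RPKM in control samples (limma adjusted p = 0.0163). In NAP-1 knockdown 0 genes of these lists passed.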

How the data were processed

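The authors deposited 1 table of RPKM values per feature, with the number of alignments per sample as a count; stranded mRNA libraries were made, per the labels' protocols. Per the submitters' processing notes, reads were placed on build dm3; neither aligner nor counting program is given in the sources used here. Of 16381 features, 4430 were used: all those of the members, Nap1 and nej, and others with a mean of at least 1 RPKM. Per-sample columns not used number 11951. Distinct features were summed per symbol, and 3990 genes with a mean of at least 1 RPKM were fitted. Lengths are medians over transcripts in the BDGP6 annotation, which is not dm3: nothing but symbols and lengths was taken from it.

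A linear model of log2(RPKM + 1) over 6 samples was fitted with limma 3.58.1 (R 4.3.3), with a variance trend and Benjamini-Hochberg adjustment over all genes. Fold changes on that scale understate changes of low genes. RPKM are not counts, so no count model was used. The fit was tested on simulated data. Members and lists were chosen with earlier results of these data known. Values per sample are given for members called, with the 3 largest changes per direction, at the extremes of level, or below the minimum; values of others were chosen after they were seen. Alternatives covered pseudocount, minimum, scaling, length (loess, span 0.5), samples in the fit, replicate number, variance trend, symbol-only columns and omission of each sample.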

Additional observations from a re-analysis of the deposited data

How the results depend on the processing

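Depth of 4162019 to 5362319 alignments and 2 samples a group limit all calls. The fit without a minimum level was left out: apart from the members, Nap1 and nej, features under a mean of 1 RPKM were not read. In CBP knockdown against control, members called lower were 1 instead of 3 at a mean of at least 5 RPKM, where fewer genes were tested. IntS1 and MED6, with means of 2.71 and 4.98 RPKM, were below that minimum and not tested, and MED15 kept its call. Omission of 1 sample gave 0 to 5 members lower and 0 to 7 higher, while all genes lower numbered 0 to 737 and higher 0 to 541. In NAP-1 against CBP knockdown, the 1 call became 0 with a pseudocount of 0.1 RPKM, quantile normalization, 4 samples in the fit, no variance trend and symbol-only features, 2 after scaling by median of ratios or subtraction of the length trend, and 0 to 5 on omission of 1 sample; the cause was not tested. In NAP-1 knockdown against control 0 members were called under every setting run. The fold change of MED18 in NAP-1 knockdown was -0.0041 without NAP-1 knockdown replicate 1 and 0.92 without replicate 2. A tally took, per comparison, the members called and those with the 3 largest changes per direction. Of its 342 fold changes under alternatives, 284 kept direction and side of the threshold, 53 lost their call and 4 gained one. The 284 include fold changes called in neither fit. MED4, MED21, MED28 and MED31, outside that set in CBP knockdown against control, each gained a call there under some setting. So did MED1, also outside it, but only without CBP knockdown replicate 1, which leaves 1 sample in that group.

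With the replicate number as a block, 4 members were higher and 2 lower in CBP knockdown, with 187 of all genes higher and 500 lower, and 0 members and 0 genes were called in NAP-1 against CBP knockdown. The labels do not say whether the numbers pair samples. Across genes, the differences between replicates correlated at 0.24 for NAP-1 knockdown with control and 0.13 for CBP knockdown with control. For NAP-1 with CBP knockdown the value was -0.24. These values do not settle whether samples of the same number share a batch.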
